A study of Mus musculus with 8 samples.

Results

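Genes that protect cells from oxidants were compared between lungs of newborn mouse pups labelled Fgf10+/- and lungs of wild-type pups. The set holds 40 listed genes, chosen by function: the NRF2 pathway, glutathione synthesis and transfer, peroxidases and catalase, superoxide dismutases, and metallothioneins. Of these, 39 had at least 1 array feature (a spot on the array) named for them in the platform annotation, among 20842 genes in all. G6pdx was not analysed here. The 39 genes were read by 66 features, 29 of them by a single feature each and 10 by several.

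The 8 lungs came from C57Bl/6J pups kept in a chamber with 20% oxygen, that is, normal air, from postnatal day 0 to day 3. The pups labelled Fgf10+/- (4 samples) carry 1 disrupted copy of Fgf10, a growth factor of lung mesenchyme that signals to the epithelium, and the wild-type pups (4 samples) carry none. Both groups are described with the same strain and air. How the allele was made, and the sex and litter of each pup, are not given in the labels. The submitters call the samples independent, without saying whether littermates were used, so p-values measure the spread between these samples. RNA was labelled with Cy3 on 1-colour arrays, and the values are log2 signals that the authors had brought to a common distribution.

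Cells meet oxidants with several linked systems. The transcription factor NRF2, encoded by Nfe2l2, is held down by KEAP1 until oxidants or electrophiles modify KEAP1, and it then switches on genes through antioxidant response elements. Glutathione is a small thiol that glutathione peroxidases spend to remove peroxides and that transferases attach to toxic molecules, while superoxide dismutases turn superoxide into hydrogen peroxide. Metallothioneins are small proteins rich in cysteine that bind zinc and copper, and the factor MTF1 switches on their genes through metal response elements. These systems matter in the lung at birth, when the tissue first meets air.

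Some facts of the whole data set bear on what follows. The libraries labelled Fgf10+/- showed no lower Fgf10 signal, at 7.95 ± 0.32 against 7.46 ± 0.40 in wild type (SD, n = 4 each; limma adjusted p = 0.507), so every direction below rests on the labels. Wild-type replicate 4 stood apart. The mean log2 signal of 8 skeletal muscle genes lay between 3.73 and 3.96 in the libraries labelled Fgf10+/- and between 3.96 and 7.30 in wild type, with the highest value in that replicate, and its deviation there was 2.97. Cartilage genes (6 of 6 measured, deviation 3.38) and fat genes (6 of 6 measured, deviation 1.69) were high in the same library. Cardiac muscle genes (7 of 7 measured, all lower in mean) separated the groups, at mean signals of 7.75 to 8.09 in the libraries labelled Fgf10+/- and 8.56 to 8.93 in wild type. Ciliated cell markers (7 of 7 measured, all lower in mean) did so too, at 7.10 to 7.46 against 7.57 to 7.88 in wild type. Alveolar type 2 markers (11 of 11 measured, all lower in mean) also did, at 11.67 to 11.83 against 12.26 to 12.43 in wild type. The part of these lists in the values below was not tested. Markers of the lung itself, such as Sftpb at 13.98 ± 0.11 in the libraries labelled Fgf10+/- and 14.25 ± 0.09 in wild type (SD, n = 4 each), were present in both groups.

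No antioxidant gene passed the test. With limma and Benjamini-Hochberg adjustment over all 20842 genes, 0 of the 39 members had an adjusted p under 0.05, against 0% of all genes, and the smallest adjusted p of a member was 0.230. At an unadjusted p under 0.05 there were 6 members (15.4%), 2 higher and 4 lower in the libraries labelled Fgf10+/-. Of all genes 11.0% had such a p, 4.74% higher and 6.29% lower. For 4 members (10.3%) the 4 and 4 arrays did not overlap. That held for 7.39% of all genes, 2.99% higher and 4.40% lower, so the members' share was near the background. Those 4 were Hmox1 and Sod3, higher in the libraries labelled Fgf10+/-, and Gsta3 and Mt1, lower there. The members as a set did not lean to one side: their median log2 difference was 0.01, beside 0 over all genes, with 22 higher and 17 lower. Under a variance trend with robust settings limma called 2 members (5.1%), against 1.99% of all genes. They were Gsta3 (adjusted p = 0.0184) and Sod3 (adjusted p = 0.0227).

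**Figure D1:**
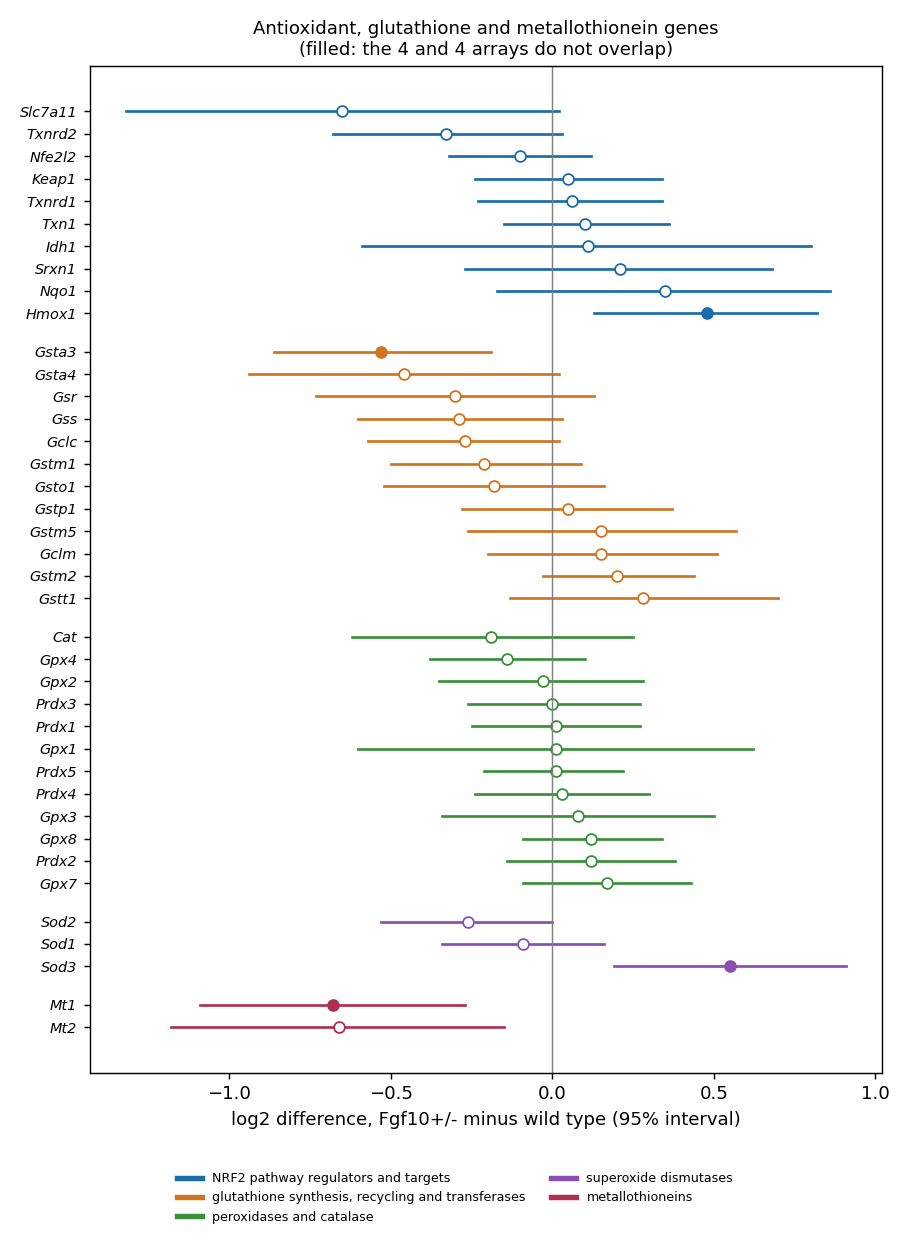
Log2 difference (libraries labelled Fgf10+/- minus wild type, x axis) of the 39 measured genes, grouped by role, with limma's 95% interval as a line. Filled points mark Hmox1, Gsta3, Sod3 and Mt1, whose 4 and 4 arrays do not overlap, and the peroxidase group lies closest to 0, with a median of 0.01.

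The counts depended on wild-type replicate 4. In all 6 members with an unadjusted p under 0.05, that library was the wild-type array nearest to the libraries labelled Fgf10+/-, as it was in 43.7% of the 2298 genes with such a p. Without it, 11 members (28.2%) did not overlap between groups, against 13.7% of all genes, and 0 passed limma's adjusted threshold. The 7 that joined were Gclc (-0.32), Gsta4 (-0.61), Gstm1 (-0.29), Gpx7 (0.21), Gpx8 (0.15), Sod2 (-0.32) and Mt2 (-0.87). The count was 7 without replicate 1 (13.0% of all genes) and 8 without replicate 2 (10.1% of all genes) of the libraries labelled Fgf10+/-. With fewer arrays, non-overlap is easier to reach for every gene. The part of the muscle, fat and cartilage signal in these values was not tested.

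Of the 5 role groups the metallothioneins had the median difference farthest from 0, at -0.67. Mt1 and Mt2, which store zinc and scavenge oxidants, lie next to each other on chromosome 8. Their promoter windows are shown first because both were lower together and because metal response elements are the known handle of these genes. The windows run from 250 bases before to 50 after the start that RefSeq annotates (GRCm38.p6), which need not be the start used in lung. The window of Mt1 is chr8:94178839-94179138 and that of Mt2 is chr8:94172368-94172667, both on the plus strand, 5′ to 3′. Capitals mark the metal response element core, searched as TGCACNC or TGCGCNC on both strands.
Mt1: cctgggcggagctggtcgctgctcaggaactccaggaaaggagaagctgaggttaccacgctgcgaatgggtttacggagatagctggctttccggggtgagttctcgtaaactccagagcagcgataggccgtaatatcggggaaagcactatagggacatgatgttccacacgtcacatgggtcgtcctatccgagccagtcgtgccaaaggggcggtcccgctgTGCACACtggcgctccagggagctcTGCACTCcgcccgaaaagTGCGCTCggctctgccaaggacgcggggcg
Mt2: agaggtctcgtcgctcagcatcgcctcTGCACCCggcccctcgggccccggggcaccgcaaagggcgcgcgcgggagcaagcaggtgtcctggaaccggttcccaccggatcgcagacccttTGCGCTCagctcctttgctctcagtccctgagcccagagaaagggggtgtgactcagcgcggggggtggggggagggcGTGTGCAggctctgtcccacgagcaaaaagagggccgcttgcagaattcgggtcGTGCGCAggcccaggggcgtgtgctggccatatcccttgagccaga
The Mt1 window held 3 such matches and the Mt2 window 4, none of which overlapped an antioxidant response element core. At least 1 match stood in 25.7% of all 32851 promoter windows of the same length and at least 3 in 1.97%. Of the 42 windows of listed genes, 12 (28.6%) held at least 1. The window of Gclm, which differed by 0.15, also held 3. A match is a string of letters and not a measured binding site.

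Mt1 had log2 signals of 11.87, 11.76, 11.75 and 11.50 in the libraries labelled Fgf10+/-, against 12.68, 12.53, 12.46 and 11.93 in wild type. Every library labelled Fgf10+/- lay below every wild-type library, but wild-type replicate 4 came within 0.06 of the highest of them. The difference was -0.68 with a standard error of 0.18 (limma adjusted p = 0.230). Mt2 had signals of 11.17, 11.09, 10.83 and 10.71 in the libraries labelled Fgf10+/-, against 11.99, 11.69, 11.76 and 11.00 in wild type. Here wild-type replicate 4 fell inside the range of the libraries labelled Fgf10+/-, so the groups overlapped. The difference was -0.66 with a standard error of 0.22 (limma adjusted p = 0.324). Without wild-type replicate 4 the differences were -0.84 for Mt1 and -0.87 for Mt2, and over the other arrays left out in turn they stayed negative. In bulk tissue, fewer cells of a type and less RNA per cell cannot be told apart, here and in what follows.

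Partners of the metallothioneins did not pass either. Mtf1, the metal-sensing factor, differed by -0.16 (95% interval -0.49 to 0.17). Slc30a1, the zinc exporter that MTF1 also controls, differed by -0.44 (-0.97 to 0.09). The brain-type metallothionein Mt3 differed by 0.29 (-0.12 to 0.70), an interval that does not reach the values of Mt1 and Mt2. Mt4 gave a dim mean signal of 2.29 against 2.38 in wild type, below the array median of 3.47. Glucocorticoids are a known inducer of Mt1 and Mt2, and 8 glucocorticoid response genes (8 of 8 measured) had a mean signal of 8.64 to 9.13 in the libraries labelled Fgf10+/- and 8.86 to 9.41 in wild type. The list's deviation was -0.20 in wild-type replicate 4 and between 0.27 and 0.36 in the other 3 wild-type libraries. That replicate was also the wild-type library lowest in metallothioneins, at -0.20, and in alveolar type 2, club and ciliated markers. In the libraries labelled Fgf10+/- the list's deviations were 0.07, -0.41, -0.09 and -0.31 in replicate order. Those of the metallothioneins were -0.15, -0.25, -0.38 and -0.57, a different order. The part of glucocorticoid response in the metallothionein difference was not tested.

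**Figure D2:**
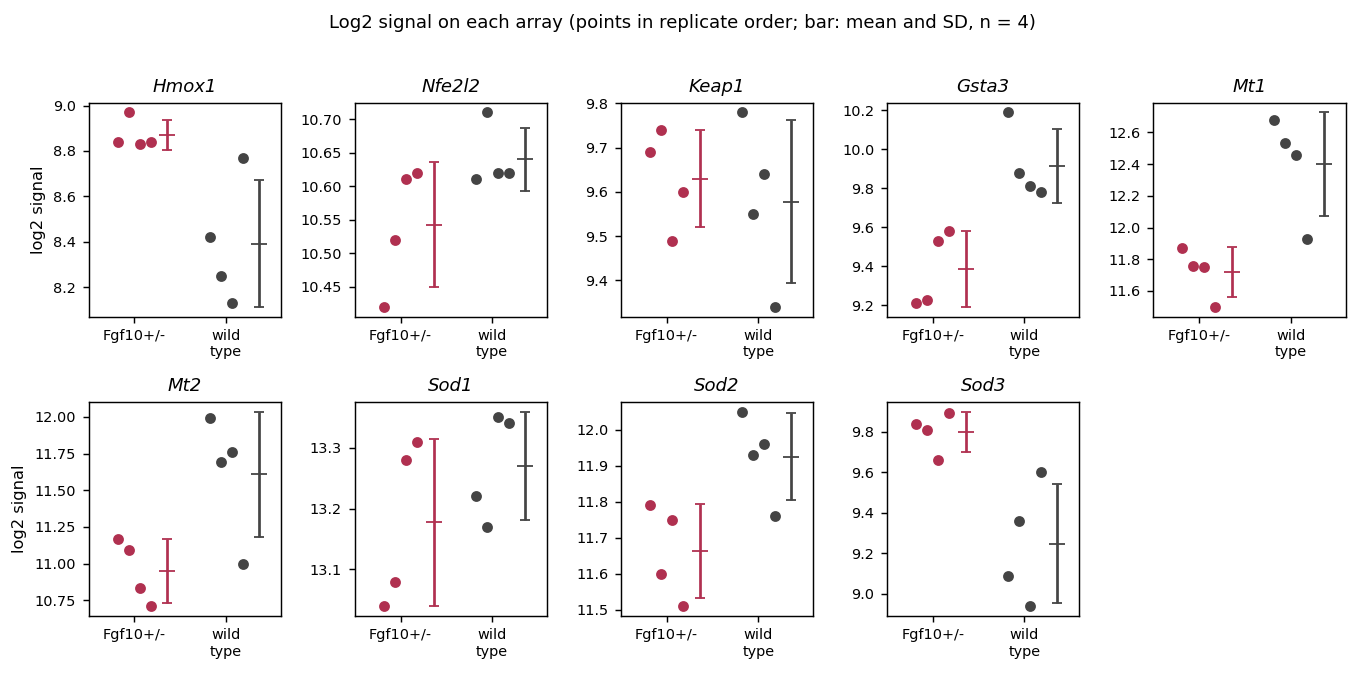
Log2 signal (y axis, a separate scale for each gene) of 9 genes on each array, libraries labelled Fgf10+/- left and wild type right, points in replicate order, with mean and SD (n = 4) beside them. Hmox1 and Sod3 are higher and Gsta3 and Mt1 lower without overlap, and for Hmox1, Sod3, Mt1 and Mt2 wild-type replicate 4 (last point) is the wild-type library nearest to the other group.

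The superoxide dismutases differed in sign, and the difference between them was not tested. Sod3, the secreted enzyme that guards the extracellular matrix and vessel walls, had signals of 9.84, 9.81, 9.66 and 9.89 in the libraries labelled Fgf10+/-, against 9.09, 9.36, 8.94 and 9.60 in wild type. All 4 libraries labelled Fgf10+/- lay above all wild-type libraries, and wild-type replicate 4 came within 0.06 of the lowest. The difference was 0.55 with a standard error of 0.16 (limma adjusted p = 0.259), and 0.67 without wild-type replicate 4. Endothelial markers (5 of 5 measured) had overlapping means, from 10.52 to 10.69 in the libraries labelled Fgf10+/- and from 10.48 to 10.75 in wild type. The part of endothelial or any other cells in the Sod3 values was not tested.

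Sod2, the mitochondrial enzyme, was lower in mean. Its signals were 11.79, 11.60, 11.75 and 11.51 in the libraries labelled Fgf10+/-, against 12.05, 11.93, 11.96 and 11.76 in wild type. Only wild-type replicate 4 reached into the other group's range, and the difference was -0.26 with a standard error of 0.11 (limma adjusted p = 0.452). Sod1, the cytosolic enzyme, had signals of 13.04, 13.08, 13.28 and 13.31 against 13.22, 13.17, 13.35 and 13.34 in wild type. These ranges overlapped, and the difference of -0.09 had a 95% interval of -0.34 to 0.16. Ccs, the chaperone that loads copper into SOD1, differed by -0.02 (-0.22 to 0.19).

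No regulator of the NRF2 pathway passed the test. Nfe2l2 had signals of 10.42, 10.52, 10.61 and 10.62 in the libraries labelled Fgf10+/-, against 10.61, 10.71, 10.62 and 10.62 in wild type. The ranges overlapped, and the difference was -0.10 (95% interval -0.32 to 0.12). Keap1 had signals of 9.69, 9.74, 9.49 and 9.60 against 9.78, 9.55, 9.64 and 9.34 in wild type, which overlapped throughout, and its difference was 0.05 (-0.24 to 0.34). NRF2 acts mainly through protein stability, which arrays do not measure. Cul3, the ligase scaffold that works with KEAP1, differed by 0.08, Bach1, a repressor of the same elements, by -0.04 and its relative Bach2 by -0.32 (-0.85 to 0.20). The NRF2 relatives Nfe2l1 and Nfe2l3 differed by -0.48 and -0.58, with limma adjusted p of 0.570 and 0.711. Of the small MAF partners, Mafg differed by -0.03 and Maff by -0.20, while Mafk had 7.40 ± 0.05 against 7.79 ± 0.17 in wild type (SD, n = 4 each), a difference of -0.39 without overlap (limma adjusted p = 0.261).

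Among NRF2 targets, Hmox1 stood out. Hmox1, the inducible enzyme that breaks down heme, had signals of 8.84, 8.97, 8.83 and 8.84 in the libraries labelled Fgf10+/-, against 8.42, 8.25, 8.13 and 8.77 in wild type. Every library labelled Fgf10+/- lay above every wild-type library, and wild-type replicate 4 came within 0.06 of them. The difference was 0.48 with a standard error of 0.15 (limma adjusted p = 0.289), or 0.60 without wild-type replicate 4. A second, dimmer Hmox1 feature went the other way, at -0.29, with means of 4.43 against 4.71 in wild type and overlapping groups, so with both features averaged the difference was only 0.10. Macrophages that clear red cells make much of this enzyme, and heme induces it. Macrophage markers (7 of 7 measured) had mean signals of 7.85 to 8.74 in the libraries labelled Fgf10+/- and 8.40 to 8.63 in wild type, and erythroid markers (5 of 7 measured) 7.40 to 10.40 and 7.55 to 9.32. Both lists overlapped between groups, and their part in the Hmox1 values was not tested.

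Genes of the next steps of heme and iron handling did not pass. Blvra and Blvrb, the biliverdin reductases, differed by 0.02 (95% interval -0.25 to 0.29) and 0.12 (-0.36 to 0.61). The interval of Blvrb reaches past the Hmox1 difference. The ferritin chains Fth1 and Ftl1 differed by 0.05 (-0.22 to 0.31) and 0.07 (-0.18 to 0.32). The other NRF2 targets did not pass. Nqo1, a quinone reductase, differed by 0.35 (95% interval -0.17 to 0.86), Srxn1, which repairs overoxidised peroxiredoxins, by 0.21 (-0.27 to 0.68), and Txnrd1, the cytosolic thioredoxin reductase, by 0.06 (-0.23 to 0.34). Txn1, thioredoxin itself, differed by 0.10 (-0.15 to 0.36). Txnrd2, the mitochondrial reductase, differed by -0.33 (-0.68 to 0.03). Slc7a11, the cystine importer, differed by -0.65 (-1.32 to 0.02), but its means of 2.37 and 3.02 (wild type) lay below the array median of 3.47. Idh1, a cytosolic source of NADPH, differed by 0.11 (-0.59 to 0.80). The 10 measured genes of this role group had a median difference of 0.08, 7 higher and 3 lower. Without wild-type replicate 4 the median was 0.03, with 5 higher and 5 lower.

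The glutathione group had a lower median in the libraries labelled Fgf10+/-, at -0.19 over 12 genes, 5 higher and 7 lower. Gsta3, a glutathione transferase of the alpha class, was the 1 gene of the group without overlap. Its promoter window is shown for that reason and because the NRF2 element is the known handle of such enzymes. It is chr1:21240335-21240634 on the plus strand (GRCm38.p6, RefSeq), 5′ to 3′, with the antioxidant response element core in capitals, searched as TGACNNNGC on both strands.
Gsta3: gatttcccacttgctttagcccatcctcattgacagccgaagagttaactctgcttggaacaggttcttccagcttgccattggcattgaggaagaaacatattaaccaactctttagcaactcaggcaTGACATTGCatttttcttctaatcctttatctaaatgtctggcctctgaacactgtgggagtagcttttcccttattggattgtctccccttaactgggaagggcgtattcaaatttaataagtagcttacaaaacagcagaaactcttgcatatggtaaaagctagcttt
The core stood once in this window. RefSeq windows were at hand for 35 of the 40 listed genes. The core was found in 12.4% of all 32851 windows and in 10 of the 42 windows of the listed genes (23.8%), 1 each for Gclm, Gsta3, Gstm5, Mt2, Nfe2l2, Prdx1, Sod1, Srxn1, Txnrd1 and G6pdx. The letters say nothing about whether NRF2 bound there, and elements farther from the start were not searched.

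Gsta3 had signals of 9.21, 9.23, 9.53 and 9.58 in the libraries labelled Fgf10+/-, against 10.19, 9.88, 9.81 and 9.78 in wild type. The groups did not overlap, with the lowest wild-type library 0.20 above the highest of the others. The difference was -0.53 with a standard error of 0.14 (limma adjusted p = 0.245). A second Gsta3 feature gave -0.49, also without overlap. Gsta4, which handles the lipid peroxidation product 4-hydroxynonenal, ranged from 6.75 to 7.32 in the libraries labelled Fgf10+/- and from 7.09 to 7.84 in wild type. It differed by -0.46 with a standard error of 0.21 (limma adjusted p = 0.470), and all 10 of its features were lower, from -0.51 to -0.24. These features read the same 8 RNAs and are not separate measurements.

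The other listed transferases differed in both directions, and the classes were not compared by a test. Gstm1 differed by -0.21 and Gsto1 by -0.18, but Gstm2 by 0.20, Gstm5 by 0.15, Gstt1 by 0.28 and Gstp1 by 0.05, and every interval held 0. The mu-class genes are close relatives, so part of their signal may be shared between features. For glutathione synthesis, the levels of Gclc ran from 9.37 to 9.77 in the libraries labelled Fgf10+/- and from 9.71 to 10.06 in wild type. Gclc, the catalytic subunit of the rate-limiting ligase, differed by -0.27 (95% interval -0.57 to 0.02), its modifier subunit Gclm by 0.15 (-0.20 to 0.51) and Gss, the second enzyme, by -0.29 (-0.60 to 0.03). Gsr, which recycles oxidised glutathione, differed by -0.30 (-0.73 to 0.13). None of these passed.

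Club and alveolar epithelial cells are rich in such enzymes, and their markers are given beside them, none of which passed the adjusted threshold. Club markers (8 of 8 measured, 4 at an unadjusted p under 0.05) had mean signals of 11.25 to 11.53 in the libraries labelled Fgf10+/- and 11.52 to 11.89 in wild type, which overlapped. Alveolar type 2 markers (11 of 11 measured) had 11.67 to 11.83 against 12.26 to 12.43 in wild type, without overlap, although Sftpc (15.98 in both groups) and the club marker Scgb1a1 (15.93 against 15.96 in wild type) sat at the top of the scale. Cell cycle markers (7 of 8 measured) had 8.27 to 8.37 against 7.43 to 7.82 in wild type. The part of these cell types in the glutathione values was not tested.

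Peroxidases and catalase lay close to 0 in the median. Their median difference was 0.01 over 12 genes, 9 higher and 3 lower, and 0 had an unadjusted p under 0.05. The split was 5 higher and 7 lower without replicate 1 or replicate 3 of the libraries labelled Fgf10+/- or without wild-type replicate 2, and 6 and 6 without wild-type replicate 4 or with array weights. The peroxiredoxins, abundant thiol peroxidases of the cytosol (Prdx1, Prdx2), mitochondria (Prdx3), endoplasmic reticulum (Prdx4) and several compartments (Prdx5), differed by 0.01, 0.12, 0.00, 0.03 and 0.01. Their 95% intervals all lay between -0.26 and 0.38. For Prdx3 the 10 features ran from -0.16 to 0.17. The 2 features of Hmox1 lay farther apart, at -0.29 and 0.48.

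The glutathione peroxidases also lay near 0. Gpx4, which protects membranes from lipid peroxides, differed by -0.14 (95% interval -0.38 to 0.10). The endoplasmic reticulum enzymes Gpx7 and Gpx8 differed by 0.17 (-0.09 to 0.43) and 0.12 (-0.09 to 0.34). Gpx2, the epithelial form, differed by -0.03 (-0.35 to 0.28) and the secreted Gpx3 by 0.08 (-0.34 to 0.50). Gpx1, the cytosolic form, was the least certain at 0.01 (-0.60 to 0.62), because replicate 3 of the libraries labelled Fgf10+/- stood at 13.51 and the other 3 between 12.35 and 12.70. That replicate also had the highest erythroid deviation, 1.67, and red cells hold much GPX1 and PRDX2. Prdx2 was highest there as well, at 12.39 against 12.00 to 12.10 in the other 3. The part of red cells in these values was not tested. Cat, the peroxisomal catalase, differed by -0.19 (-0.62 to 0.25). A second, dimmer Cat feature differed by -0.46, with means of 5.75 against 6.21 in wild type and overlapping groups. With both features averaged Cat differed by -0.32 without overlap (limma unadjusted p = 0.0237, adjusted p = 0.368). Over all roles, 16 of the 39 members had a 95% interval that stayed within 0.5 of 0.

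Other redox genes, taken from a list of 62 that all had a feature, had more lower than higher means. Of these, 44 (71%) had a lower mean in the libraries labelled Fgf10+/-, against 50.2% of all genes, and the median difference was -0.09. Called at an adjusted p under 0.05 were 0, against 0% of all genes. At an unadjusted p under 0.05 there were 9 (14.5%), 1 higher and 8 lower, against 11.0% of all genes, and for 9 (14.5%) the groups did not overlap, against 7.39%. Markers of several cell types differed between the same libraries. Their median differences were -0.73 for alveolar type 2 cells (11 of 11 lower) and -0.29 for alveolar type 1 cells (6 of 7 lower). For club cells the median was -0.45 (8 of 8 lower) and for ciliated cells -0.51 (7 of 7 lower). For the cell cycle it was 0.72 (7 of 7 measured genes higher). The part of these lists in the values of the redox genes was not tested.

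The 1 higher gene was Nnt, the mitochondrial enzyme that makes NADPH for glutathione recycling and that lies near Fgf10. It had 10.21, 10.26, 10.17 and 10.30 in the libraries labelled Fgf10+/-, against 9.62, 9.53, 9.55 and 9.54 in wild type (limma adjusted p = 0.0767). The gap between its groups was far wider than the spread within either. Array signal does not show whether a working enzyme was made, and the labels do not give the Nnt allele of either group. The part of its place near Fgf10 in this difference was not tested. The lower genes included more transferases and detoxifying enzymes. Gstt3 had 8.66, 8.67, 8.84 and 8.71 against 9.21, 9.10, 9.18 and 9.06 in wild type, without overlap. Mgst1, a membrane-bound transferase, had 11.61, 11.48, 11.48 and 11.21 against 12.08, 11.90, 11.91 and 11.68 in wild type, also without overlap.

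The remaining members of the leading 8 followed. Gstz1, which also acts in tyrosine breakdown, differed by -0.39, Gstt2 by -0.40 and Ephx1, the microsomal epoxide hydrolase, by -0.34, each without overlap. Txnip, which binds and restrains thioredoxin, had 11.23, 11.30, 11.44 and 11.19 in the libraries labelled Fgf10+/-, against 11.84, 11.76, 11.67 and 11.50 in wild type. Its groups did not overlap and its difference was -0.40 (limma adjusted p = 0.261). Prdx6, the peroxiredoxin with phospholipase activity in lung, differed by -0.18 (95% interval -0.40 to 0.04).

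**Figure D3:**
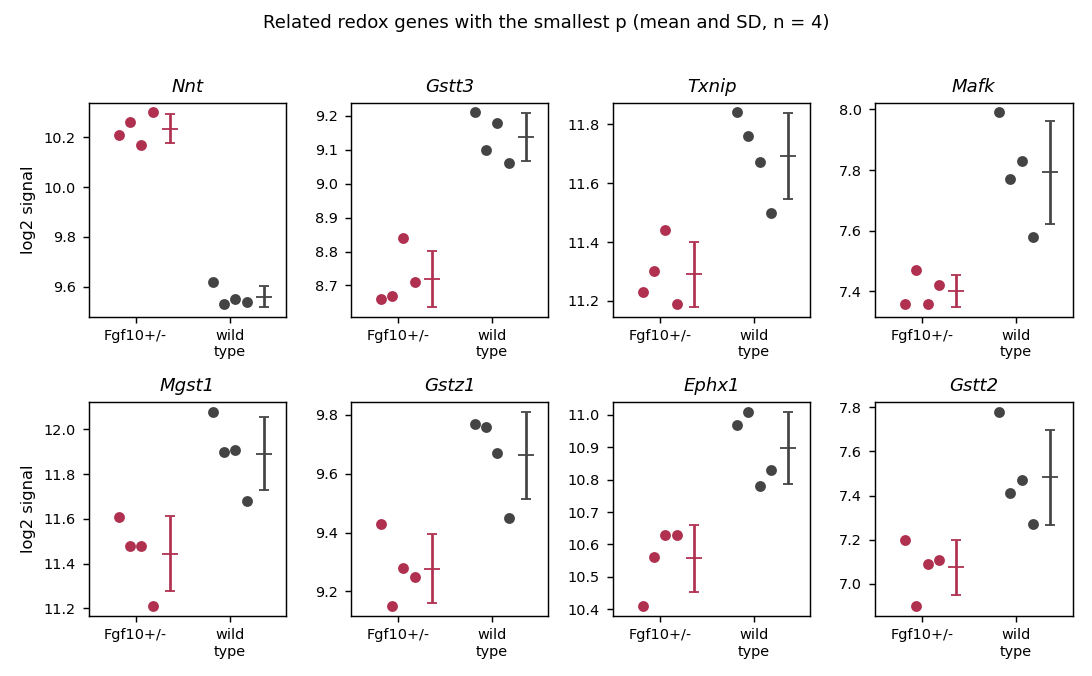
Log2 signal (y axis, a separate scale for each gene) of the 8 related redox genes with the smallest p, on each array, libraries labelled Fgf10+/- left and wild type right, with mean and SD (n = 4). Nnt is higher and the other 7 lower without overlap, and none passed the adjusted threshold.

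**Figure D4:**
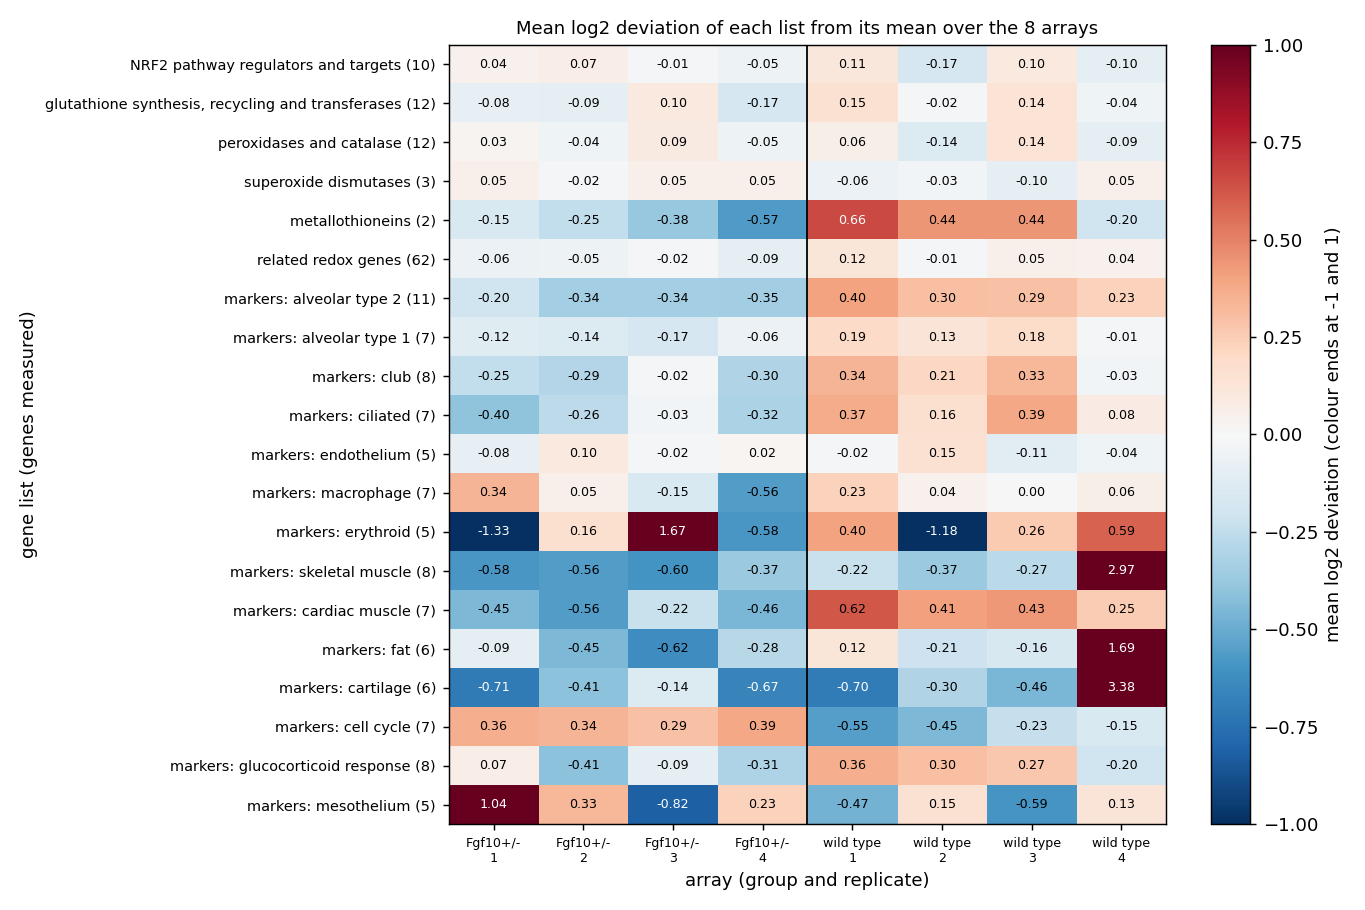
Mean log2 deviation of each gene list from its mean over the 8 arrays (rows are lists with the number of genes measured, columns are arrays, libraries labelled Fgf10+/- left of wild type). The metallothionein deviation is -0.15 to -0.57 in the libraries labelled Fgf10+/- and -0.20 in wild-type replicate 4, the library with the muscle, fat and cartilage signal.

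By array, the role groups other than metallothioneins moved little. The glutathione deviation lay between -0.17 and 0.10 in the libraries labelled Fgf10+/- and between -0.04 and 0.15 in wild type. The NRF2 group lay between -0.05 and 0.07 against -0.17 to 0.11 in wild type, and the peroxidases between -0.05 and 0.09 against -0.14 to 0.14. In all 3 the groups overlapped. The metallothionein pair spanned -0.57 to -0.15 in the libraries labelled Fgf10+/- and -0.20 to 0.66 in wild type. It varied more between arrays than any other role group, also among the wild-type libraries alone. The pair is a mean of 2 genes, beside 3 to 12 in the other role groups, and a mean over fewer genes can vary more.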

How the data were processed

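Lung RNA was amplified with an Agilent QuickAmp kit, per the labels' protocols. The deposited values are log2 signals of 62976 features, which the authors had quantile normalized, as the values show (sorted arrays differed by at most 0.0042). The submitters' processing notes name limma. No source used here gives the background correction, spot filtering, slide or scan date, so differences near the floor or the top may be compressed and no batch was tested.

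Features took their names from the platform annotation, updated by accession through RefSeq (GRCm38.p6). Those without blanks numbered 31425, for 20842 genes, each represented by its feature with the highest mean. The main test was limma 3.58.1 in R 4.3.3 (two-sided, group only, Benjamini-Hochberg over all genes, threshold 0.05), tested on simulated data. The number of arrays, 4 a group, limits precision. A deviation is a list's mean log2 signal on an array minus its mean over the 8 arrays. Members and lists were chosen with earlier results of these data known. All members are named, with values in every array for Nfe2l2, Keap1, the superoxide dismutases, the metallothioneins and members without overlap or with an unadjusted p under 0.05. Of the other redox genes the 8 with the smallest p are named, and further ones as partners of members, chosen after their values were seen. Alternatives were feature averaging, each feature on its own, scaling, filters on dim genes, the variance model, weights on arrays, a replicate block and leaving out each array. Figures were drawn with matplotlib 3.10.9.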

Additional observations from a re-analysis of the deposited data

Results flagged for a closer look

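A library that lay far from the other 3 of its group was looked for in 78 sets of 4 values (39 genes in 2 groups) and in 12 sets of list deviations, and 5 were found, where chance gives about 1 in 20. Hmox1 stood at 8.97 in replicate 2 of the libraries labelled Fgf10+/-, against 8.83 to 8.84 in the other 3. Gpx8 stood at 10.89 in the same library, against 10.99 in the other 3. The superoxide dismutase deviation was -0.02 in that library too, against 0.05 in the other 3. Nfe2l2 stood at 10.71 in wild-type replicate 2, against 10.61 to 10.62 in the other 3 wild-type libraries. Nqo1 stood at 3.59 in wild-type replicate 4, against 4.22 to 4.33 in the other 3, and its signal is near the array median of 3.47. All but Nqo1 are small shifts that stand out because the other 3 values were nearly equal.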

How the results depend on the processing

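The median difference of every role group and of all members moved by less than the spread between replicates in each alternative run. The number of members passing an adjusted p of 0.05 was 0 in every alternative except the variance trend with robust settings. There it was 2 (5.1%), against 1.99% of all genes. That setting also gave 10 members and 14 related redox genes at an unadjusted p under 0.05, in place of 6 and 9. Of all genes 12.2% had such a p there, in place of 11.0%. With genes below the 50th percentile of signal left out, 0 members passed an adjusted p of 0.05, against 2.76% of the genes then tested. In that run 11 members had an unadjusted p under 0.05, against 18.3% of those genes. With median centring 7 members did not overlap, 5 higher and 2 lower, in place of 4, against 7.38% of all genes. The 6 with an unadjusted p under 0.05 were 3 higher and 3 lower in place of 2 and 4, against 11.1% of all genes. With all features of a gene averaged, that split was 1 and 5, and 10.6% of all genes had such a p. Leaving out each array in turn gave 4 to 11 members without overlap, against 2026 to 2851 of all 20842 genes. At an unadjusted p under 0.05 it gave 5 to 9 members and 8 to 12 related genes, against 1822 to 2658 of all genes. The cause of these shifts was not tested. Same-numbered libraries correlated at 0.11, 0.02, 0.02 and 0.08 in their deviations from the group means. The closest wild-type library was replicate 1 for replicate 1 and replicate 4 for replicates 2, 3 and 4. With so few arrays this cannot show whether the replicate numbers pair the samples. With the replicate number as a block, 9 members had an unadjusted p under 0.05, against 2469 of all 20842 genes, and 0 an adjusted one. Keap1, Txnrd1, Idh1, Gstp1, Gpx1, Gpx2, Gpx3, Prdx1, Prdx3, Prdx4 and Prdx5, 11 members near 0, changed sign or reached 0.00 in some of the 17 settings. Gsta3, Sod3, Mt1, Mt2 and Hmox1 kept their sign in these settings, but with features averaged Hmox1 was at 0.10 with overlapping groups, and its dimmer feature on its own was at -0.29.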

Other observations

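The measured genes of NADPH supply and of the pentose phosphate pathway, apart from Nnt, showed no difference beyond their error. G6pdx was not among them. In the pentose phosphate pathway Pgd differed by -0.13 (95% interval -0.44 to 0.18), Taldo1 by -0.02 (-0.29 to 0.26) and Tkt by -0.01 (-0.23 to 0.21). Malic enzyme, Me1, differed by -0.04 (-0.31 to 0.23) and the mitochondrial isocitrate dehydrogenase Idh2 by -0.01 (-0.22 to 0.21). The glutaredoxins, which use glutathione, differed by -0.40 (Glrx), 0.29 (Glrx2), 0.06 (Glrx3) and 0.01 (Glrx5), and none passed (limma adjusted p of 0.579 to 0.994). Selenop, the plasma carrier of selenium, which glutathione peroxidases need, had 12.70 ± 0.07 in the libraries labelled Fgf10+/- and 12.89 ± 0.07 in wild type (SD, n = 4 each), without overlap, with a difference of -0.19 (limma adjusted p = 0.518).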
